A study of Caenorhabditis elegans with 11 samples.

Results

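The genes described here are the short-chain dehydrogenase genes of Caenorhabditis elegans that carry a dhs, sdr or stdh symbol. The rule within the family goes by gene symbol: every probe set annotated with a single gene symbol made of dhs, sdr or stdh and a number was taken, and a gene with several probe sets was read by the one with the highest mean over all arrays. The rule found 37 probe sets for 34 genes, of 17118 genes with a single symbol on the array. Of the 34 genes, 30 are dhs genes, 4 are stdh genes and 0 are sdr genes.

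Short-chain dehydrogenases/reductases are a large and old enzyme family. Their members pass hydride between NAD(H) or NADP(H) and substrates such as steroids, fatty acyl intermediates, retinoids and sugars, and they share a nucleotide-binding fold and a catalytic tyrosine. In the worm, DHS-3 and DHS-19 sit on lipid droplets, DHS-28 acts in the peroxisomal shortening of ascaroside pheromone side chains, DHS-16 takes part in making the steroid hormone dafachronic acid, and DHS-21 is an L-xylulose reductase. For most other members, dhs-26 among them, no substrate is named here.

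RNA of whole hermaphrodites was measured on 11 Affymetrix arrays. Every hermaphrodite carried glp-1(e2141); glp-1 is the Notch receptor that maintains the dividing germ line, and this allele fails at high temperature. Per the labels, embryos came from 15 °C and the plates stood at 25 °C, the temperature at which the labels call the worms sterile. A 10 cm plate of OP50 bacteria held either 500 hermaphrodites, or 250 hermaphrodites and 250 wild-type males, from the first larval stage of the hermaphrodites to day 8. Males were then removed and RNA was taken from 200 hermaphrodites per sample. Worms with no RNAi named form the groups glp-1 without males (n = 3) and its counterpart with males (n = 3). Knockdown worms form the groups utx-1 RNAi without males (n = 3) and its counterpart with males, of which n = 2 (replicates 1 and 3). Independent experiments gave the samples of a group, per the labels. UTX-1 removes methyl groups from histone H3 lysine 27. No empty-vector group is named, so in every comparison with RNAi, knockdown of utx-1 cannot be told apart from the RNAi treatment or its food. Plates with males also held fewer hermaphrodites, so the presence of males and the number of hermaphrodites cannot be told apart either.

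Values are log2 expression values made by the authors with RMA, and a difference of 1 is a doubling. Array medians lay between 3.78 and 3.98. The utx-1 probe set with the higher mean read 11.54 to 13.09 on the 6 arrays without RNAi, 4.81 to 6.42 in utx-1 RNAi without males, and 8.40 to 9.06 in utx-1 RNAi with males. A second utx-1 probe set read 7.03 to 7.14, 4.41 to 4.76, and 4.87 and 5.0 in the same order. Under RNAi both probe sets were higher with males, by 3.28 (limma adjusted p = 0.000114) and 0.32 (0.0476). The size of the gap between the knockdown groups thus depends on the probe set. Its part in the comparisons below was not tested. The group utx-1 RNAi with males stood apart in germ line markers on both of its arrays. The mean over 14 germ cell markers was 6.16 and 6.36 there against 3.78 to 4.21 on the other 9 arrays, and the mean over 13 oocyte and eggshell markers was 8.72 and 8.87 against 4.69 to 5.44. The labels call these worms sterile, yet the mean levels of germ cell and oocyte markers were raised in that group. These markers do not measure fertility. Intestinal markers were high on every array (12 genes, array means 10.36 to 10.58). Array means were 7.32 to 7.65 for neuron markers (10 genes) and 7.54 to 8.36 for body muscle markers (8 genes). The RNA thus held several tissues, as the label of whole worms implies. Means over 16 sperm markers lay between 3.80 and 4.75, and those over 3 genes of the male somatic gonad and seminal fluid between 6.30 and 7.0, with the highest of these in glp-1 without males.

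The effect of males in worms without RNAi was the first comparison, 3 arrays against 3. Of the 34 genes, 5 rose and 7 fell at an adjusted p under 0.05 (limma, Benjamini-Hochberg over all 22548 probe sets), and 22 did not pass. Among all probe sets 5.65% rose and 6.15% fell. Array medians were 3.78 to 3.98, while 22 of the 34 genes had a mean of at least 5. Shares over all probe sets, here and below, are thus not matched for level. The fall of dhs-26 was the deepest of the 34, followed by dhs-2 and stdh-1, and the rise of dhs-4 was the largest. The median difference of the 34 genes was -0.12 on the log2 scale, against -0.006 over all probe sets. In RNA of whole worms, fewer cells of a type and less RNA per cell cannot be told apart.

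The level of dhs-26 was 8.94, 8.54 and 8.08 in glp-1 without males, and 6.13, 5.57 and 5.41 in glp-1 with males. The nearest arrays of both groups were 1.95 apart. This is a fall by 2.81 ± 0.38 (SE) on the log2 scale, to 14.2% of the level without males (limma adjusted p = 0.0017). The level of dhs-2 was 7.09, 6.49 and 6.58 without males and 5.65, 5.22 and 4.96 with males. It fell by 1.44 ± 0.28, to 36.8% (limma adjusted p = 0.00717), and all 3 arrays with males were below all 3 without. The members dhs-27, dhs-29 and dhs-9 fell less, by 0.46 ± 0.08 (limma adjusted p = 0.00582), 0.40 ± 0.12 (0.0475) and 0.32 ± 0.09 (0.0433). The array values of dhs-29 were 6.59, 6.49 and 6.56 without males and 6.16, 6.09 and 6.21 with males. The falls of dhs-29 and dhs-9 rest on p-values near the threshold. They were lost in 9 and 11 of 17 alternative settings, which include leaving out any 1 array of the 6 compared (limma adjusted p = 0.0817 to 0.137 for dhs-29 and 0.0536 to 0.15 for dhs-9).

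Among the lipid droplet members, dhs-3 read 9.68, 9.43 and 9.52 without males and 9.01, 8.99 and 8.76 with males. It fell by 0.62 ± 0.11, to 64.9% (limma adjusted p = 0.00509), and its groups did not overlap. Its second probe set fell as well, by 0.55 ± 0.14 (limma adjusted p = 0.0262). For dhs-19 the levels were 8.51, 8.44 and 8.54 without males and 8.19, 8.22 and 8.09 with males. The arrays with males were all lower, but the difference of -0.33 ± 0.10 did not pass (limma adjusted p = 0.0592).

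The steroid dehydrogenase family members split. The transcript of stdh-1, whose probe set has the highest mean of the 34 (10.61 over all arrays), read 11.24, 10.84 and 11.01 without males and 10.45, 10.35 and 10.13 with males. It fell by 0.72 ± 0.14, to 60.8% (limma adjusted p = 0.00842), with no overlap. The other 3 were dim, with every array value between 2.39 and 3.26, and the probe set of stdh-4 has the lowest mean of the 34 (2.59). Their differences were -0.08 ± 0.10 for stdh-2 (limma adjusted p = 0.709), -0.00 ± 0.09 for stdh-3 (0.997) and -0.09 ± 0.11 for stdh-4 (0.653). Since RMA compresses changes at dim probe sets, these values do not show that the RNA was constant. In the RefSeq annotation stdh-3 lies next to stdh-1, with 0 protein-coding genes between them.

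The peroxisomal member dhs-28 read 10.23, 10.15 and 10.31 without males and 10.42, 10.37 and 10.43 with males. All arrays with males were higher, by a small difference of 0.18 ± 0.07 that did not pass (limma adjusted p = 0.123). For dhs-16, which makes dafachronic acid precursors, the difference was -0.12 ± 0.12 (limma adjusted p = 0.614) at levels of 2.72 to 3.18. For dhs-21, the L-xylulose reductase gene, it was -0.16 ± 0.09 (0.266) at levels of 9.10 to 9.41.

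Of the 5 genes that rose, dhs-4 read 3.76, 3.87 and 3.85 without males and 4.76, 5.14 and 5.12 with males. The groups stood well apart, and the rise was 1.18 ± 0.15, or 2.26-fold on the RMA scale (limma adjusted p = 0.00143). A second probe set for dhs-4 rose by 0.48 ± 0.09 (limma adjusted p = 0.00743), with values of 3.07 to 3.24 without males and 3.55 to 3.69 with males. The gene dhs-5 rose by 0.61 ± 0.11 (limma adjusted p = 0.00481), from 7.12, 7.0 and 7.12 to 7.51, 7.90 and 7.67. The gene dhs-18 rose by 0.55 ± 0.10 (limma adjusted p = 0.005), from 10.10, 10.10 and 10.26 to 10.56, 10.73 and 10.82. The remaining risers were dhs-14, by 0.48 ± 0.10 (limma adjusted p = 0.00862), and dhs-6, by 0.47 ± 0.10 (0.0102). In each of these the arrays of both groups did not overlap. The same held for members that did not pass, such as dhs-19 and dhs-28, and the share over all probe sets was not counted.

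The difference with males was then measured in worms under utx-1 RNAi, 2 arrays against 3. This comparison shared no array with the first, but used the same estimate of the spread for each probe set. Here 4 of the 34 genes rose and 10 fell (limma), against 11.8% and 9.03% of all probe sets. The falls were again led by dhs-26, dhs-2 and stdh-1, while the largest rise was that of dhs-11, whose difference without RNAi was -0.06 (adjusted p = 0.732). The median difference was -0.21 on the log2 scale for the 34 genes and -0.027 for all probe sets.

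**Figure D1:**
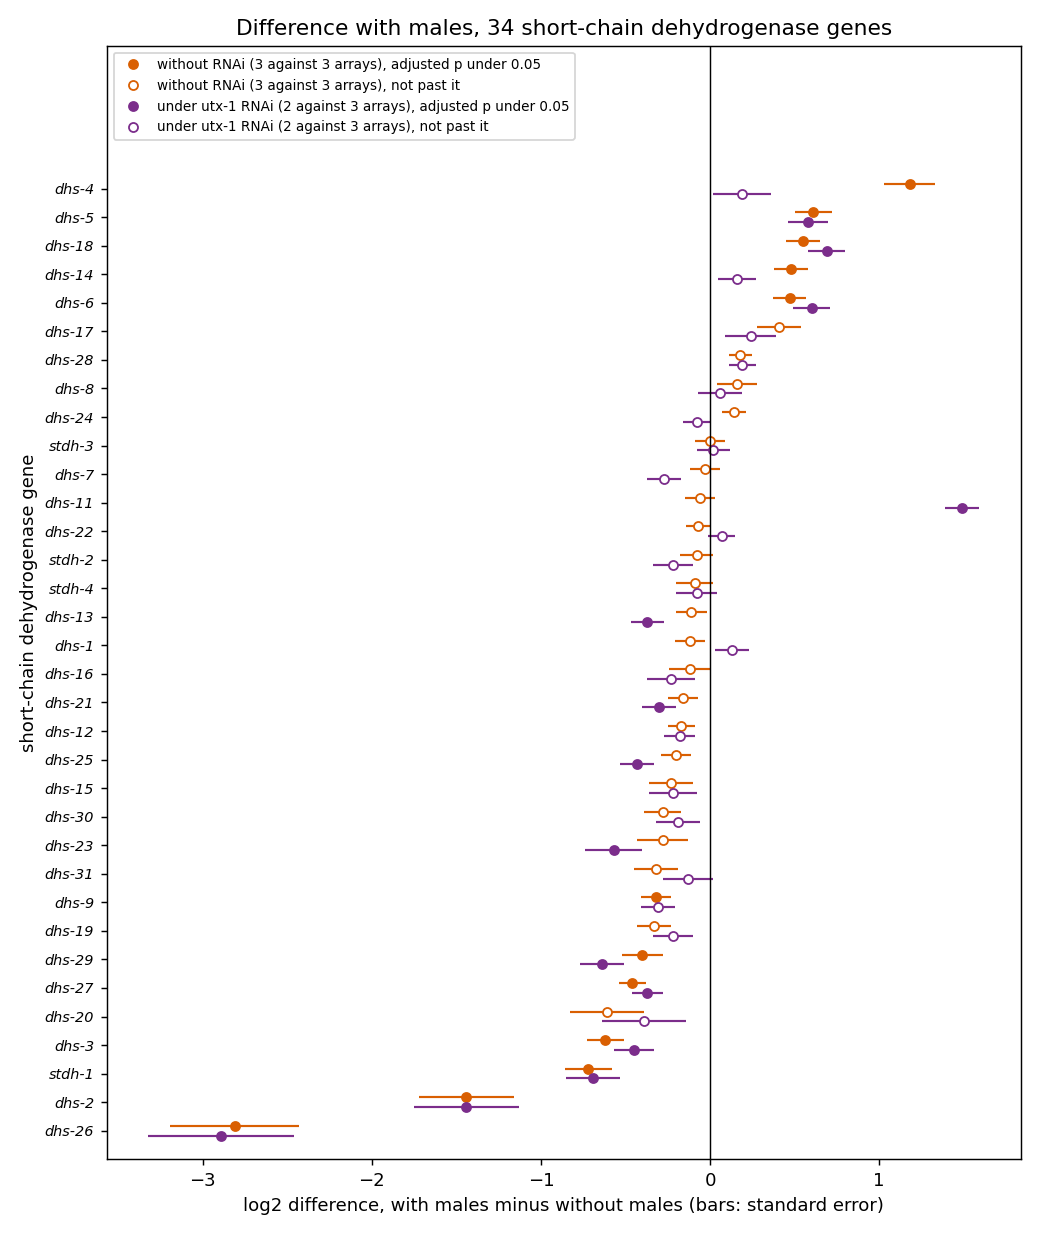
Difference with males minus without males for each of the 34 genes on the log2 scale (horizontal axis), without RNAi (orange, 3 against 3 arrays) and under utx-1 RNAi (purple, 2 against 3 arrays). Filled points have a limma adjusted p under 0.05 and bars are standard errors. The gene dhs-26 lies lowest in both (-2.81 and -2.89), whereas dhs-4 (1.18 and 0.19) and dhs-11 (-0.06 and 1.49) differ between the worms without and with RNAi.

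For dhs-26 the levels were 8.52, 7.53 and 8.45 in utx-1 RNAi without males, and 4.48 and 6.07 in utx-1 RNAi with males. The groups did not overlap, although both arrays with males were 1.59 apart. The fall was 2.89 ± 0.43 on the log2 scale, to 13.5% (limma adjusted p = 0.000501). For dhs-2 the levels were 6.46, 5.99 and 6.35 without males and 4.23 and 5.43 with males, a fall by 1.44 ± 0.31 (limma adjusted p = 0.00605). For stdh-1 they were 10.88, 10.75 and 10.81 without males and 9.85 and 10.41 with males, a fall by 0.69 ± 0.16 (0.00926). For dhs-3 they were 9.27, 9.11 and 9.22 without males and 8.57 and 8.94 with males, a fall by 0.45 ± 0.12 (0.0235). In each of these 4 genes replicate 1 of the group with males was the lowest of all 11 arrays.

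The other genes that fell were dhs-29 (-0.64 ± 0.13, limma adjusted p = 0.00456), dhs-23 (-0.57 ± 0.17, 0.0296), dhs-25 (-0.43 ± 0.10, 0.0114), dhs-13 (-0.37 ± 0.10, 0.0171), dhs-27 (-0.37 ± 0.09, 0.0138) and dhs-21 (-0.30 ± 0.10, 0.048). The last of these, the L-xylulose reductase gene, read 9.06, 9.23 and 9.24 without males and 8.80 and 8.96 with males. Of these, dhs-13 and dhs-23 are dim, at 3.69 to 3.99 and 3.40 to 3.74 without males. With replicate 1 of the RNAi group with males left out, 1 of the 10 falls passed, that of dhs-26 (-2.09). For the others limma's adjusted p was then 0.0859 to 0.364, among them dhs-2 (-0.84, limma adjusted p = 0.0938), stdh-1 (-0.41, 0.157) and dhs-3 (-0.26, 0.314). The falls of dhs-3 (limma adjusted p = 0.0746), dhs-27 (0.0539) and dhs-23 (0.0625) also did not pass without replicate 1 of the group without males, nor did those of dhs-3 (0.0592), dhs-23 (0.0941) and dhs-21 (0.118) without its replicate 3, nor those of dhs-13 (0.0512) and dhs-21 (0.112) without its replicate 2. Without replicate 3 of the group with males, dhs-13 (0.0626) and dhs-21 (0.0508) did not pass, and the call of dhs-21 was lost in 11 of 17 settings. On replicate 1 of the group with males 5 of the 34 genes (14.7%) were lower than on replicate 3 by at least 0.5, namely dhs-26, dhs-2, dhs-20, dhs-4 and stdh-1, against 2.2% of all probe sets. The reverse gap was seen in 0 of the 34 and in 1.59% of all probe sets.

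**Figure D2:**
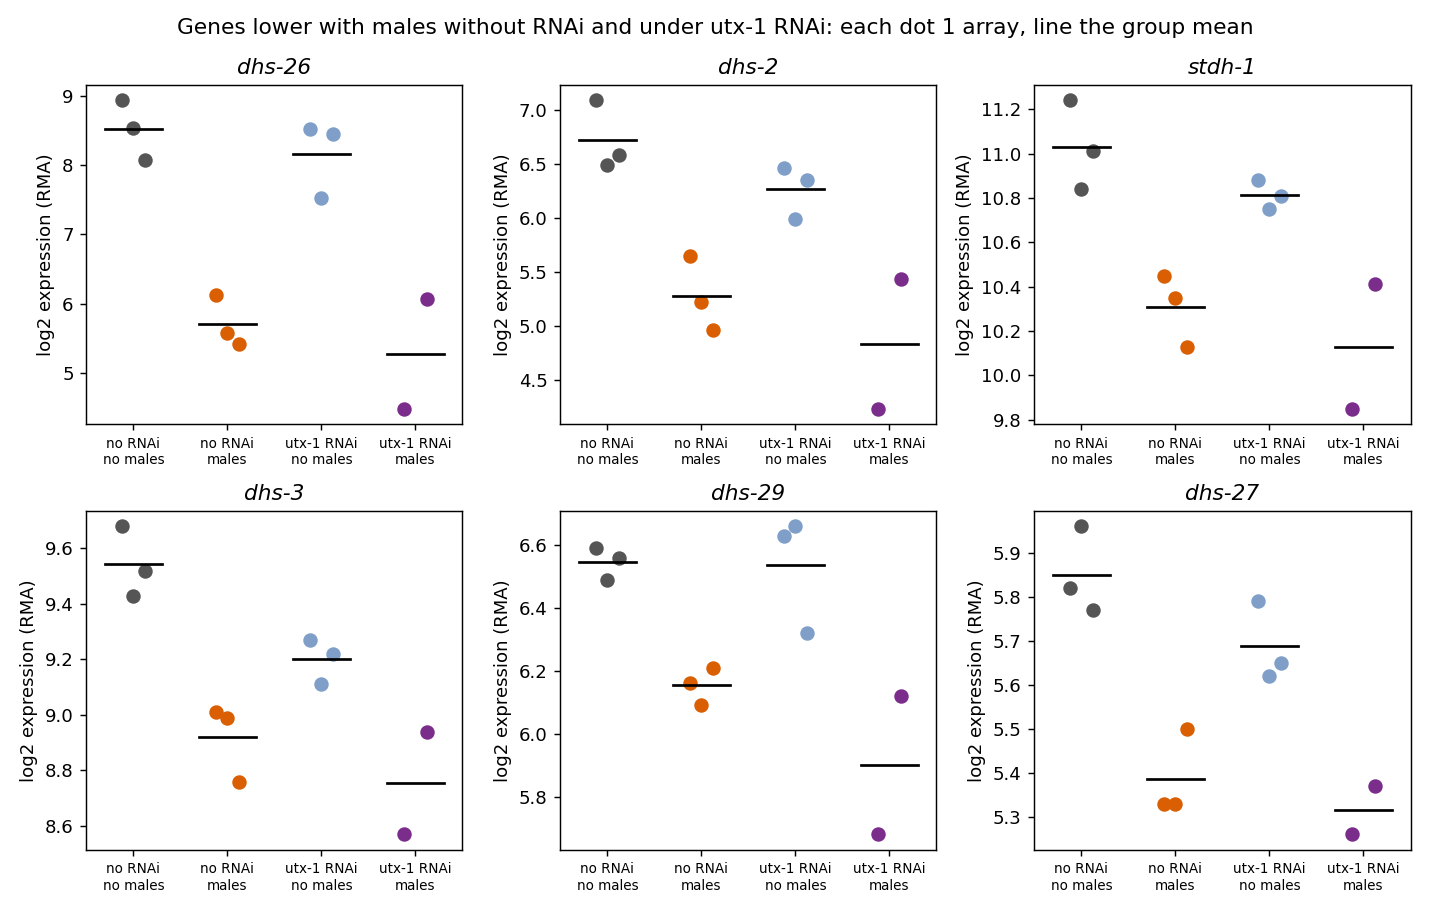
Log2 expression of 6 genes on each of the 11 arrays, by group (dots are arrays, lines are group means, and the vertical axes differ between panels). All arrays with males lie below all arrays without males of the same RNAi state, and in each panel the lower dot of utx-1 RNAi with males, replicate 1, is the lowest of the 11 arrays.

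The gene dhs-11 read 3.54, 3.75 and 3.44 in utx-1 RNAi without males and 5.14 and 5.0 with males. Both arrays with males were far above the others, and the rise was 1.49 ± 0.10, or 2.81-fold on the RMA scale (limma adjusted p = 7.09e-07). Levels this dim are compressed, so folds of dhs-11 and dhs-4 can understate the change in RNA. The gene dhs-18 rose by 0.69 ± 0.11 (limma adjusted p = 0.000834), from 10.17, 10.29 and 10.27 to 11.08 and 10.78. The gene dhs-6 rose by 0.60 ± 0.11 (limma adjusted p = 0.00197), from 8.55, 8.63 and 8.54 to 9.29 and 9.05. The gene dhs-5 rose by 0.58 ± 0.12 (limma adjusted p = 0.00466), but did not pass without replicate 1 of the group with males (0.072). The rises of dhs-11, dhs-18 and dhs-6 stayed past the threshold in every alternative setting that could give a value.

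Several members with known roles did not pass under RNAi. The difference was -0.22 ± 0.12 for the lipid droplet gene dhs-19 (limma adjusted p = 0.214), -0.23 ± 0.14 for dhs-16 (0.273) and -0.22 ± 0.12 for stdh-2 (0.217). It was 0.02 ± 0.10 for stdh-3 (limma adjusted p = 0.908) and -0.08 ± 0.12 for stdh-4 (0.705). For dhs-28 the probe set with the higher mean gave 0.19 ± 0.08 (limma adjusted p = 0.105), whereas the second one rose by 0.25 ± 0.07 (0.0356), so the call depends on the probe set. The name of the second one ends in _x_at, which marks probes that can bind other transcripts, and that of the first does not. With RNAi, dhs-4 and dhs-14, which had risen in its absence, gave 0.19 ± 0.17 (limma adjusted p = 0.503) and 0.16 ± 0.11 (0.33). For dhs-9 the difference of -0.31 ± 0.10 did not pass (0.0526).

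**Figure D3:**
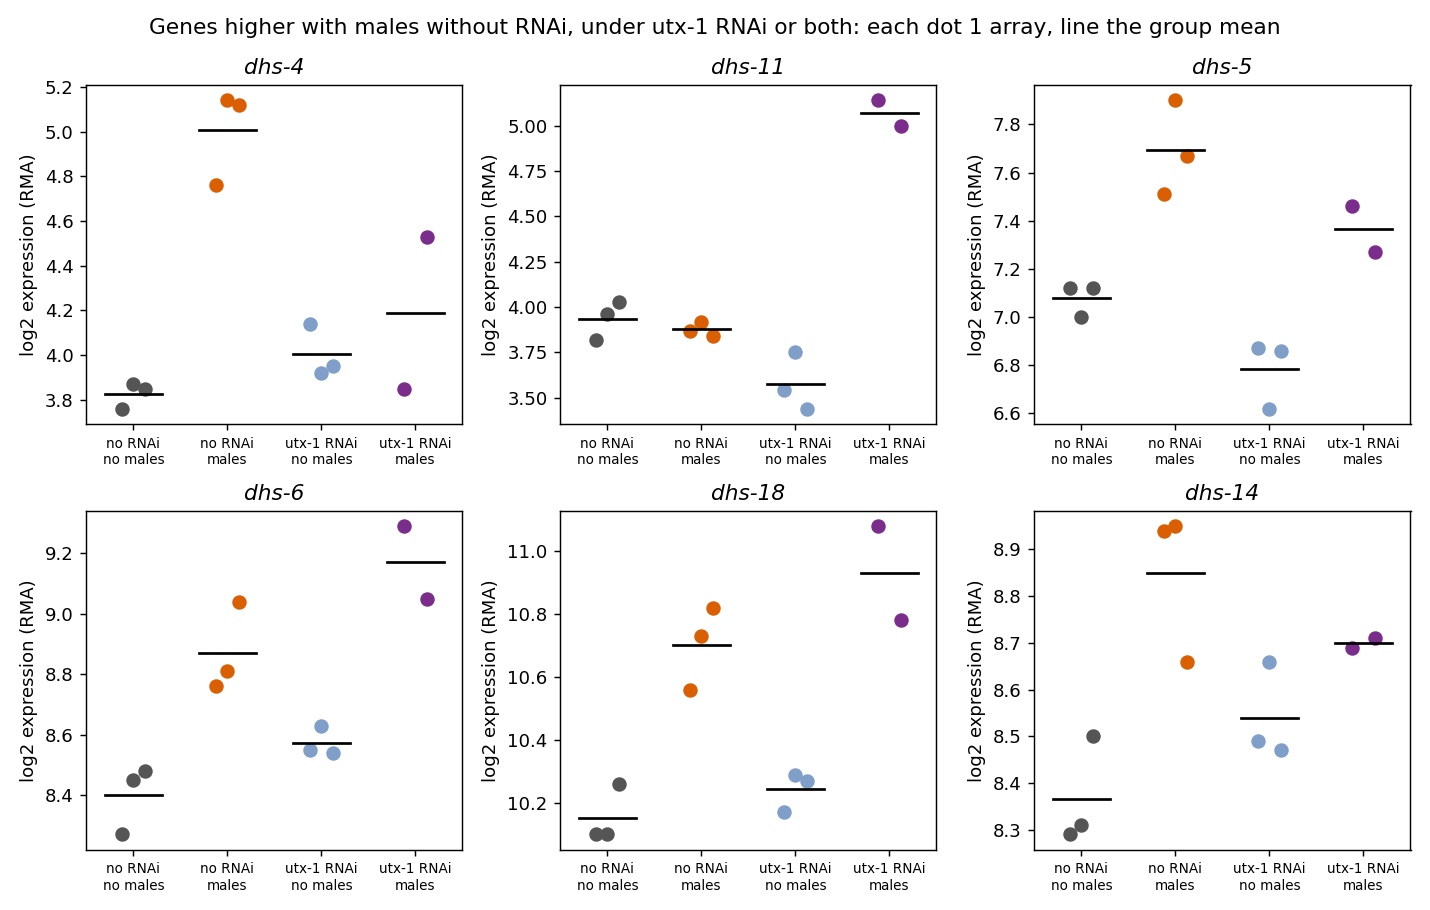
Log2 expression of 6 genes on each of the 11 arrays, by group (dots are arrays, lines are group means, and the vertical axes differ between panels). The gene dhs-4 is high in glp-1 with males (4.76 to 5.14), dhs-11 is high in utx-1 RNAi with males (5.0 and 5.14), and dhs-5, dhs-6 and dhs-18 are higher with males both without RNAi and under it.

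Marker genes of other cell types moved with the males under RNAi. Of the 14 germ cell markers 13 rose, with a median difference of 1.91, and of the 13 oocyte and eggshell markers 11 rose, with a median of 4.64, whereas without RNAi 2 of 14 rose and 1 fell, and 0 of 13 rose. Body muscle markers had array means of 8.03 to 8.36 in utx-1 RNAi without males and 7.54 and 7.80 with males, and 5 of 8 fell while act-4 rose by 0.28. Hypodermal and cuticle markers, 7 genes measured, had array means of 5.23 to 5.44 and 4.79 to 5.03 without and with males in the absence of RNAi, and 5.06 to 5.16 against 4.67 and 4.88 under it. In that list 0 of 7 rose with males, and 2 fell without RNAi and 3 under it. The adult cuticle collagen gene col-19 fell most, by 1.24 and 1.09. The differences of bli-1 were 0.07 and 0.20 and did not pass. Of the 12 intestinal markers, 2 rose and 2 fell in either comparison. The gut esterase gene ges-1 fell by 0.86 and 1.25, while act-5 rose by 0.50 and 0.44 and asp-1 by 0.35 and 0.43. Over all probe sets 5.65% rose and 6.15% fell without RNAi, and 11.8% and 9.03% under it. The part of these markers in the changes of the dehydrogenase genes was not tested.

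The 2 comparisons share no arrays but use the same estimate of the spread for each probe set. Their calls, set beside each other here, are thus not independent. Of the genes that fell, 6 fell in both, which is 85.7% of the 7 without RNAi and 60% of the 10 under it: dhs-26, dhs-2, stdh-1, dhs-3, dhs-29 and dhs-27. With replicate 1 of the RNAi group with males left out, 1 gene fell in both, dhs-26, and with replicate 1 of the RNAi group without males left out, 3 did. Over all probe sets, on all arrays, 769 fell in both, 55.5% and 37.8% of those that fell in each. Of the genes that rose, dhs-5, dhs-6 and dhs-18 rose in both, 60% of 5 and 75% of 4, against 39.1% and 18.7% over all probe sets, and 2 rose in both with replicate 1 of the RNAi group with males left out. The sign of the difference was the same for 29 of the 34 genes (85.3%) and for 61.5% of all probe sets, which are dimmer as a set. A rise in one and a fall in the other was called for 0 of the 34 genes and for 39 probe sets in all.

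The interaction takes the males effect under RNAi and subtracts that without it, to test whether both differ. It passed for 2 of the 34 genes, 1 in each direction, against 6.42% of all probe sets with a higher and 1.23% with a lower effect under RNAi (limma). In the same test 12 of 14 germ cell markers and 11 of 13 oocyte and eggshell markers had a higher effect under RNAi. The effect of males on dhs-11 was higher under RNAi by 1.56 ± 0.14 (95% interval 1.26 to 1.86, limma adjusted p = 1.45e-05). That on dhs-4 was lower by 0.99 ± 0.23 (limma adjusted p = 0.0194). For dhs-14, called without RNAi and not under it, the interaction of -0.32 ± 0.15 did not pass (limma adjusted p = 0.249). The value for dhs-4 was -0.65 with replicate 1 of the RNAi group with males left out (limma adjusted p = 0.079), and its second probe set gave -0.48 ± 0.14 (0.0646). It also did not pass without replicate 1 of the RNAi group without males (-0.92, limma adjusted p = 0.0536). In the RNAi group with males, dhs-4 read 3.85 on replicate 1 and 4.53 on replicate 3.

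For the genes that fell with males in both comparisons, the interaction was not called, and its intervals show what the arrays can resolve. For dhs-26 it was -0.08 with a 95% interval from -1.33 to 1.18, and for dhs-2 it was 0.01 with an interval from -0.90 to 0.91. Intervals were narrower for stdh-1 (0.03, from -0.44 to 0.50) and dhs-3 (0.18, from -0.19 to 0.54). For the other members with known roles, the interaction was 0.11 for dhs-19 (from -0.23 to 0.45), 0.01 for dhs-28 (from -0.21 to 0.23), -0.11 for dhs-16 (from -0.51 to 0.28) and -0.13 for dhs-21 (from -0.42 to 0.15). It was -0.14 for stdh-2 (from -0.49 to 0.20), 0.02 for stdh-3 (from -0.27 to 0.32) and 0.01 for stdh-4 (from -0.34 to 0.37).

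The effect of utx-1 RNAi was measured without males, 3 arrays against 3, and with males, 2 against 3. Without males 0 of the 34 genes passed (limma), at 0.0355% of all probe sets higher and 0.129% lower. At an unadjusted p under 0.05, 7 of the 34 differed, 1 higher and 6 lower, and so did 3824 of all 22548 probe sets. The largest difference was that of dhs-20, with levels of 8.57, 8.14 and 8.55 without RNAi and 7.83, 7.49 and 7.79 under it. These groups did not overlap, but the difference of -0.72 ± 0.22 did not pass (limma adjusted p = 0.145). The difference was -0.35 ± 0.38 for dhs-26 (limma adjusted p = 0.684), -0.35 ± 0.11 for dhs-3 (0.158), -0.30 ± 0.10 for dhs-19 (0.182) and -0.22 ± 0.14 for stdh-1 (0.47). It was 0.07 ± 0.07 for dhs-28 (limma adjusted p = 0.61), -0.00 ± 0.12 for dhs-16 (0.997) and -0.12 ± 0.09 for dhs-21 (0.498). For stdh-2, stdh-3 and stdh-4 it was -0.13, -0.08 and -0.03.

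With males, dhs-11 rose and dhs-4 and dhs-23 fell under utx-1 RNAi (limma), against 8.96% of all probe sets higher and 5.07% lower. Without RNAi dhs-11 read 3.87, 3.92 and 3.84, and the rise under it was 1.19 ± 0.10, or 2.29-fold (limma adjusted p = 5.72e-06). For dhs-4 the fall was 0.82 ± 0.17, to 56.8% (limma adjusted p = 0.00715), and its second probe set fell by 0.41 ± 0.10 (0.0227). For dhs-23 the levels were 3.73, 3.62 and 3.54 without RNAi and 2.80 and 3.16 under it, a fall by 0.65 ± 0.17 (limma adjusted p = 0.0214). With replicate 1 of the RNAi group with males left out, the falls of dhs-4 (-0.48, limma adjusted p = 0.107) and dhs-23 (0.244) did not pass. The fall of dhs-23 also did not pass without replicate 1 (0.0658) or replicate 2 (0.0508) of glp-1 with males. Centring every array on its median lowers this difference by 0.07 for every probe set. The counts were then 1 higher and 7 lower, in place of 1 and 2. The share of all probe sets called after centring was not counted.

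In the same comparison 13 of 14 germ cell markers and 11 of 13 oocyte and eggshell markers rose, by medians of 2.16 and 4.21, and 6 of 8 body muscle markers fell, with a median of -0.57. The receptor gene glp-1 itself rose by 1.48 ± 0.19 (limma adjusted p = 0.00022). Whether dhs-11 followed any of these was not tested. The difference of dhs-26 was -0.43 ± 0.43 (limma adjusted p = 0.559), that of dhs-3 -0.17 ± 0.12 (0.41), that of dhs-19 -0.19 ± 0.12 (0.32) and that of dhs-21 -0.26 ± 0.10 (0.103). It was 0.09 ± 0.08 for dhs-28 (limma adjusted p = 0.496), -0.11 ± 0.14 for dhs-16 (0.626) and -0.18 ± 0.16 for stdh-1 (0.493). For stdh-2, stdh-3 and stdh-4 it was -0.27, -0.05 and -0.02.

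**Figure D4:**
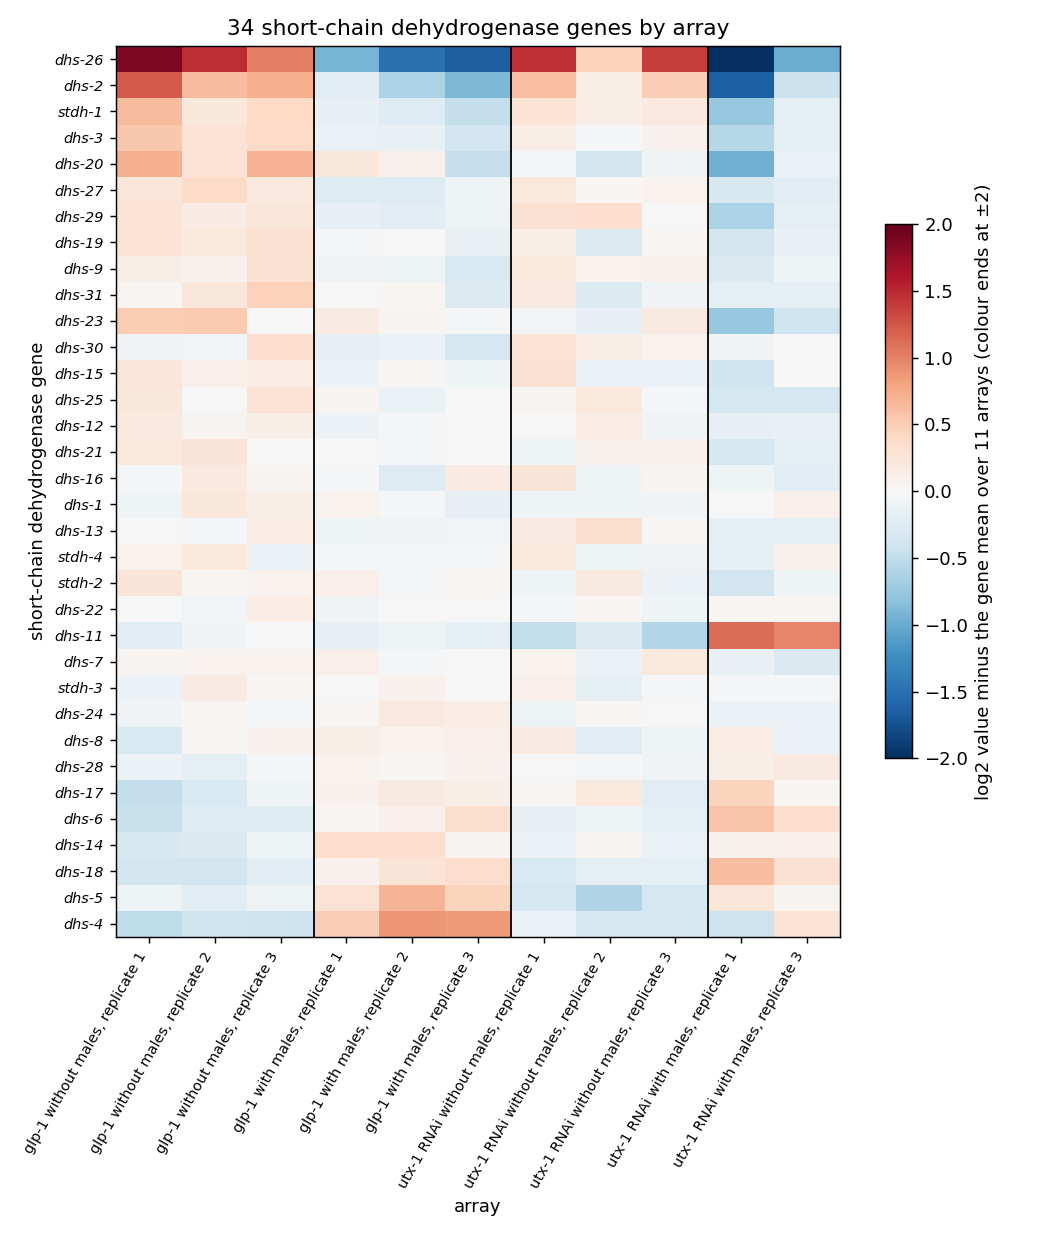
Log2 value of each of the 34 genes on each of the 11 arrays minus the mean of that gene over the 11 arrays (red above, blue below, colour ends at ±2; black lines separate the groups). The row of dhs-26 changes from red without males to blue with males in either RNAi state, the row of dhs-11 is red in both columns of the RNAi group with males, and most rows between them are pale.

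With males, 17 of the 34 genes (50%) passed neither without RNAi nor under it, against 73.1% of all probe sets. Among these, the whole range of dhs-22 over the 11 arrays was 9.69 to 9.93 and that of dhs-12 was 8.58 to 8.94. Of the 34 genes 22 had a mean of at least 5 and 12 a mean under 5, where differences are compressed. All probe sets are dimmer as a set, so the shares of 50% and 73.1% are not matched for level. For 16 of the 34, among them dhs-3, dhs-4, dhs-27 and dhs-29, the probe set has a name ending in _s_at or _x_at. Such an ending marks probes that can match several transcripts, of a single gene or of related genes. Whether these probe sets bound related genes was not tested. Some members lie near each other in the RefSeq annotation. Between dhs-26 and dhs-27 there are 10 protein-coding genes, and both fell. Between dhs-14, which rose without RNAi, and dhs-15 (-0.23 ± 0.13, limma adjusted p = 0.294) there is 1. Between dhs-1 (-0.12 ± 0.09, 0.463) and dhs-2, which fell, there are 18.

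Some genes of the family carry other names. Of 14 such genes listed, 11 were measured, and with males 0 rose and 5 fell without RNAi (median -0.32), while 1 rose and 4 fell under it (median -0.31). The falls without RNAi included ard-1, a homologue of the mitochondrial hydroxysteroid dehydrogenase of mammals (-0.70 ± 0.08, limma adjusted p = 0.000582), let-767, a steroid and 3-ketoacyl-CoA reductase (-0.54, 0.0149), and bre-1, a GDP-mannose dehydratase (-0.61, 0.0252). Among genes of long-chain fatty acid elongation, a list that also holds let-767, 11 of 12 were measured. With males 0 rose and 5 fell without RNAi, and 0 rose and 4 fell under it (medians -0.29 and -0.32). The shares over all probe sets, not matched for level, were 5.65% higher and 6.15% lower without RNAi. Under RNAi they were 11.8% and 9.03%.

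Other genes of the pathways in which members act were counted in the same way. Of 8 measured genes of ascaroside synthesis, 3 rose and 1 fell with males without RNAi and 5 rose and 1 fell under it. The acyl-CoA synthetase gene acs-7 rose by 1.98 and 1.38, and the acyl-CoA oxidase gene acox-1.5 fell by 1.16 and 1.4. Of 9 genes of dafachronic acid synthesis and response, daf-36, which encodes the oxygenase of the first step, was the 1 that rose, by 0.43 and 0.38, and 0 fell. Of 9 measured genes of lipid droplets and fat storage 1 rose, the perilipin gene plin-1, by 0.42 and 0.41, and 0 fell. These lists were drawn up with earlier results of these data known and are given as counts. Over all probe sets the medians were -0.006 and -0.027. Of all probe sets 5.65% rose and 6.15% fell without RNAi, and 11.8% and 9.03% under it.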

How the data were processed

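RNA of 11 samples was hybridised to 1 array each. The authors deposited 1 log2 value for each probe set and array. They were made with RMA according to the submitters' processing notes, which name neither its version nor its settings. Of 22625 probe sets 77 controls were left out, and 22548 were tested, including dim ones. Symbols came from the platform annotation and were updated by gene identifier for 20701 probe sets through the RefSeq table of WBcel235, which was also used for neighbouring genes. In the annotation 20766 probe sets had 1 symbol, 887 had several and 895 were not listed.

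Groups follow the titles. For 2 utx-1 RNAi arrays title and description number the replicate differently, and the title was used. All 11 arrays entered 1 linear model with a mean for each group (limma 3.58.1, R 4.3.3, default eBayes), which had 7 residual and 4.84 prior degrees of freedom. Benjamini-Hochberg adjustment ran over all tested probe sets of a comparison, and the threshold was 0.05. Rose and fell are used for results past it, ± is the standard error, and each p in parentheses is limma's adjusted p. The procedure was tested on simulated data for the males effect without RNAi only, with changes added to glp-1 with males. The other comparisons and the interaction were not simulated. Precision is limited by the small number of arrays.

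The gene family, and so its members, the gene lists and the marker lists were chosen with earlier results of these data known, and the rule within the family uses gene symbols. Named are, per comparison, up to 12 members with the largest rises and falls past the threshold. Also named are dhs-26, members of known role, the brightest and dimmest member, members whose probe sets disagree in a call, and up to 4 examples per list. Values for dhs-1, dhs-12, dhs-14, dhs-15, dhs-20 and dhs-22 outside this rule were chosen after their values were seen. The alternatives were a replicate block, a trended and robust prior, dim probe sets (mean under 5) left out, centred arrays, only the groups compared, the mean of a gene's probe sets, and each array left out in turn.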

Additional observations from a re-analysis of the deposited data

Results flagged for a closer look

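The effect of males differed with RNAi by its own test for 2 of the 34 genes. For dhs-11 the males effect in RNAi worms exceeded that in the others by 1.56 on the log2 scale (limma adjusted p = 1.45e-05), from array values of 5.14 and 5.0 in utx-1 RNAi with males against 3.44 to 4.03 on the other 9 arrays. For dhs-4 it was -0.99 (limma adjusted p = 0.0194), which did not pass when certain single arrays were left out (-0.65, adjusted p = 0.079, when replicate 1 of the RNAi group with males was left out, and -0.92, adjusted p = 0.0536, for replicate 1 of the RNAi group without males). Groups held at most 3 arrays, and single arrays were not tested as outliers.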

How the results depend on the processing

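Of 31 calls of the 34 genes over the 5 comparisons, 16 passed under every one of the 17 alternatives that could give a value, 15 were lost under at least 1, and 0 changed sign. By comparison the calls kept were 10 of 12 for males without RNAi, 4 of 14 for males under RNAi, 1 of 3 for RNAi with males and 1 of 2 for the interaction. For males without RNAi, leaving out 1 array gave 5 to 6 genes higher and 5 to 8 lower. For males under RNAi it gave 3 to 4 higher and 1 to 11 lower, the value of 1 arising without replicate 1 of the RNAi group with males. For RNAi with males it gave 1 to 2 higher and 0 to 5 lower, and for the interaction 1 higher and 0 to 1 lower. Leaving out dim probe sets gave 0 higher and 0 lower for RNAi with males and for the interaction, because dhs-11, dhs-4 and dhs-23 are themselves dim. Centring the arrays gave 7 genes lower for RNAi with males and 15 for males under RNAi. It shifts the males effect under RNAi by 0.12 and the interaction by 0.11, the differences of the array medians, and the cause was not tested. Every probe set is shifted alike, and the share of all probe sets called after centring was not counted. With the replicate number as a block 1 gene was lower for RNAi with males in place of 2. Deviations of same-numbered arrays correlated at -0.352 to 0.051, with 0 of 15 pairs over 0.1. Those of arrays with other numbers correlated at -0.241 to 0.352, with 14 of 30 pairs over 0.1. Since title and description number 2 arrays differently, this check cannot decide whether samples were paired. The difference of dhs-26 with males was -3.03 to -2.61 without RNAi and -3.69 to -2.09 under it, with adjusted p up to 0.00999 and 0.00721. No alternative with only the groups compared exists for the interaction. Values of dim probe sets limit what can be seen in 12 of the 34 genes.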
